A study of Homo sapiens with 9 samples.

Results

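The expression of 40 genes of glycolysis and the hypoxia response was followed in the human osteosarcoma line U2OS when NFKB2 or RELB was knocked down. The members were taken by gene symbol from count tables of 44608 entries, in which all 40 are listed, and were divided by role into 19 glycolytic enzymes, 5 glucose and lactate carriers and pyruvate dehydrogenase kinases, 14 targets of the hypoxia-inducible factors (HIF) and 2 HIF alpha subunits. Polyadenylated RNA was sequenced in 9 libraries: 3 received siRNA to NFKB2 (siNFKB2), 3 siRNA to RELB (siRELB) and 3 a non-silencing control (siNS). All groups received siRNA at 75 nM with a lipid reagent, were kept for 48 h in high-glucose medium with pyruvate and serum, and differ by label only in the siRNA. NFKB2 and RELB encode partner subunits of the non-canonical NF-kB pathway. The labels name no low-oxygen treatment of any group. Replicates are numbered but not said to be separate cultures, and a p-value therefore covers only the library-to-library spread, which may be technical. Of the 40 members, 37 passed the filter on low counts, and the 3 that did not were LDHA, CA9 and ANGPTL4.

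Glycolysis breaks glucose down to pyruvate in the cytosol, and lactate dehydrogenase turns pyruvate to lactate. The HIF transcription factors pair an alpha subunit, which prolyl hydroxylases mark for destruction when oxygen is present, with the constant partner ARNT. When oxygen falls, the stabilized pair binds short DNA elements and raises genes for glucose uptake, most glycolytic enzymes, blood vessel growth, removal of mitochondria and collagen processing. Many glycolytic enzymes are therefore also HIF targets. Many tumour lines use glycolysis heavily even in oxygen.

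Promoters are shown for 5 members on which the results turn, because the element HIF binds has a known core, written ACGTG or GCGTG. The sequences are from RefSeq on GRCh38.p14, each runs 5′ to 3′ on the gene's strand over 300 bases, from 250 before to 50 after an annotated start, and capitals mark every match to either core on either strand. A match on the other strand reads CACGT or CACGC, and where CACGTG stands in capitals ACGTG is present on both strands. ALDOC, BNIP3 and PDK1 were higher in siNFKB2 libraries than in both other groups, ERO1A was lower, and ADM was lower in siRELB libraries. The promoters shown are ALDOC (chr17:28576846-28577145, minus strand), BNIP3 (chr10:131981874-131982173, minus strand), PDK1 at the second of its annotated starts (chr2:172555840-172556139, plus strand), ERO1A (chr14:52695509-52695808, minus strand) and ADM (chr11:10304823-10305122, plus strand).
ALDOC: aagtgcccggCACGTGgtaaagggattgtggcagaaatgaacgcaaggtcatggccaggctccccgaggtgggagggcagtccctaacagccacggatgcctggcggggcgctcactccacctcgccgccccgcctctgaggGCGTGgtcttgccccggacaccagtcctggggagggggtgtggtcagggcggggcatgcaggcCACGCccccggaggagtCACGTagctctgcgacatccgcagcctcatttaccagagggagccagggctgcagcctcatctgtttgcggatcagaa
BNIP3: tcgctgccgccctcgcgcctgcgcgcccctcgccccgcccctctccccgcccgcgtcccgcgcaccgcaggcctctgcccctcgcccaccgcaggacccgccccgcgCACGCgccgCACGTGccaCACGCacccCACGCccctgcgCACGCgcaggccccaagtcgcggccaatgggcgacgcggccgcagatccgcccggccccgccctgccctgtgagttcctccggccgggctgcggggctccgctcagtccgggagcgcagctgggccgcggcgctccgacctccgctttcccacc
PDK1: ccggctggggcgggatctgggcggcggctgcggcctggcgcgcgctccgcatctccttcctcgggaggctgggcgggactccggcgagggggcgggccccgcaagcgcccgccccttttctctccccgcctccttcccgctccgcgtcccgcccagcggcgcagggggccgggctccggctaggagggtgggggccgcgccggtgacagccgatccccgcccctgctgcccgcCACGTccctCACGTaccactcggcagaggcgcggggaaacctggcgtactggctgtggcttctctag
ERO1A: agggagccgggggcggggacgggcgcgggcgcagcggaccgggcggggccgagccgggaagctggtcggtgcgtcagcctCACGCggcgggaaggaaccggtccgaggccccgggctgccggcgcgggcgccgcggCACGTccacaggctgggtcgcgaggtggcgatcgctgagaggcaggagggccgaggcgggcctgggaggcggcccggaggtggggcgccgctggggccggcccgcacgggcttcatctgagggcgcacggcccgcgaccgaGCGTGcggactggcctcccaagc
ADM: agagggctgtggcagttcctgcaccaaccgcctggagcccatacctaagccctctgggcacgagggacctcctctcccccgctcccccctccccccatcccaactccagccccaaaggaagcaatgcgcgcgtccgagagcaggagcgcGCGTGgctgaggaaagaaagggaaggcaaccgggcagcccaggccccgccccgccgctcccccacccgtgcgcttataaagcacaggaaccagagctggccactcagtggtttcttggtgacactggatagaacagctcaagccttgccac
ALDOC holds 4 matches, the farthest with its first base 240 bases before the start and the nearest 28 bases before it. BNIP3 holds 5 matches between 143 and 104 bases before its start, 1 of them the palindrome CACGTG. The promoter shown for PDK1 holds 2 matches, at 17 and 8 bases before the start, while the promoter at its first annotated start holds 0. ERO1A holds 3 matches and ADM holds 1. Across the 36 members with a promoter in the table, 61.1% have ACGTG in at least 1 promoter and 91.7% have either core, against 31.7% and 68.9% of the 10955 tested genes with a promoter. The 36 include LDHA, CA9 and ANGPTL4, which are not among the tested genes and each have ACGTG. The list was also drawn up in part from HIF targets, so these shares are not separate evidence. By gene, GCGTG is in 61.1% of members and 57.1% of tested genes. Counted per promoter, members have ACGTG in 40.6% of 64, GCGTG in 42.2% and either in 68.8%. Tested genes have 24.8%, 47.2% and 59.3% of 15973 in the same order. A gene counts if any of its promoters matches, and members have 64 promoters over 36 genes, against 15973 over 10955. The members' promoters have a median GC content of 68.8%, against 64.3% in those of all tested genes. Both the members that were lower and those that were higher include promoters with and without a match, and a match is only a run of letters. NDRG1, BNIP3L, VEGFA and SLC2A3 have no entry in the promoter table.

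Total counts per library were between 15011789 and 19279572. Levels are in CPM, a gene's count relative to the TMM-scaled library size, with the mean ± SD over n = 3 libraries where both are given. The siRNA targets check the labels: NFKB2 was left at 4.86%, 21.1% and 44.8% of its siNS mean in siNFKB2 replicates 1 to 3, and RELB at 9.79%, 17.1% and 19.7% in siRELB replicates 1 to 3. Markers of a mesenchymal line fit the label in part. VIM stood at 2140 to 3220.0 CPM and SPARC at 1194 to 1654 CPM, while the osteoblast genes SP7 and BGLAP were at or near 0. The summed level of all 12 mesenchymal markers was 4875 to 5227 CPM in siNFKB2, 5247 to 6279 CPM in siRELB and 5852 to 7383 CPM in siNS libraries, so it moved with the group. That of 8 epithelial markers was 578.2 to 683.1, 641.5 to 728.3 and 636.4 to 941.0 CPM in the same order, and that of 8 blood markers was at most 8.045 CPM. Most of the epithelial sum was KRT8, at 133.1 to 304.4 CPM, and KRT18, at 379.3 to 620 CPM. EPCAM and CDH1 were at most 2.727 and 3.535 CPM, and KRT19, ESRP1 and GRHL2 were at or near 0. Mitochondrial rRNA took between 0.379% and 2.68% of counts, most in siNFKB2 replicate 3. The part of these shifts in the member results was not tested, and in bulk RNA fewer cells of a type and less RNA per cell cannot be told apart. Libraries numbered 1 stood apart from replicates 2 and 3 in every group, with a chi-square per degree of freedom over genes of 21.3 to 75.8, against 3.13 to 16.8 between replicates 2 and 3. Main counts are also given without these 3, a setting chosen after results were known.

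With siRNA to NFKB2, 13 members were called against siNS, 10 of them higher, and with siRNA to RELB 1 was. Effects of an siRNA beyond its target cannot be told apart here from loss of that target. How member values go with the depth of knockdown was not tested. A gene was called changed at an adjusted p below 0.05 in edgeR's quasi-likelihood F test, adjusted by Benjamini-Hochberg over all 14815 genes tested. Between siNFKB2 and siNS libraries, 10 members rose and 3 fell of 37 tested, a share of 35.1%, where 26.1% of all genes were called, 12.6% higher and 13.5% lower. By role, 5 of 18 enzymes rose and 1 fell, 2 of 5 carriers and kinases rose, 3 of 12 HIF targets rose and 2 fell, and neither alpha subunit passed. Between siRELB and siNS libraries, 0 of 37 members rose and 1, ADM, fell, where 2.02% of all genes were called, 1.21% higher and 0.81% lower. Between siNFKB2 and siRELB libraries, 17 members were higher and 3 lower, a share of 54.1%, where 26.6% of all genes were called, 12.2% higher and 14.3% lower. In that comparison 12 of 18 enzymes were higher in siNFKB2 libraries and 0 lower. As 16 of the 18 enzymes have a mean of at least 50 CPM, the share of genes called higher among the 4871 genes at that level, 14.1%, is the closer background. The 3 comparisons share libraries: siNS serves in 2 of them, siNFKB2 in 2 and siRELB in 2, so they are not separate evidence.

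**Figure D1:**
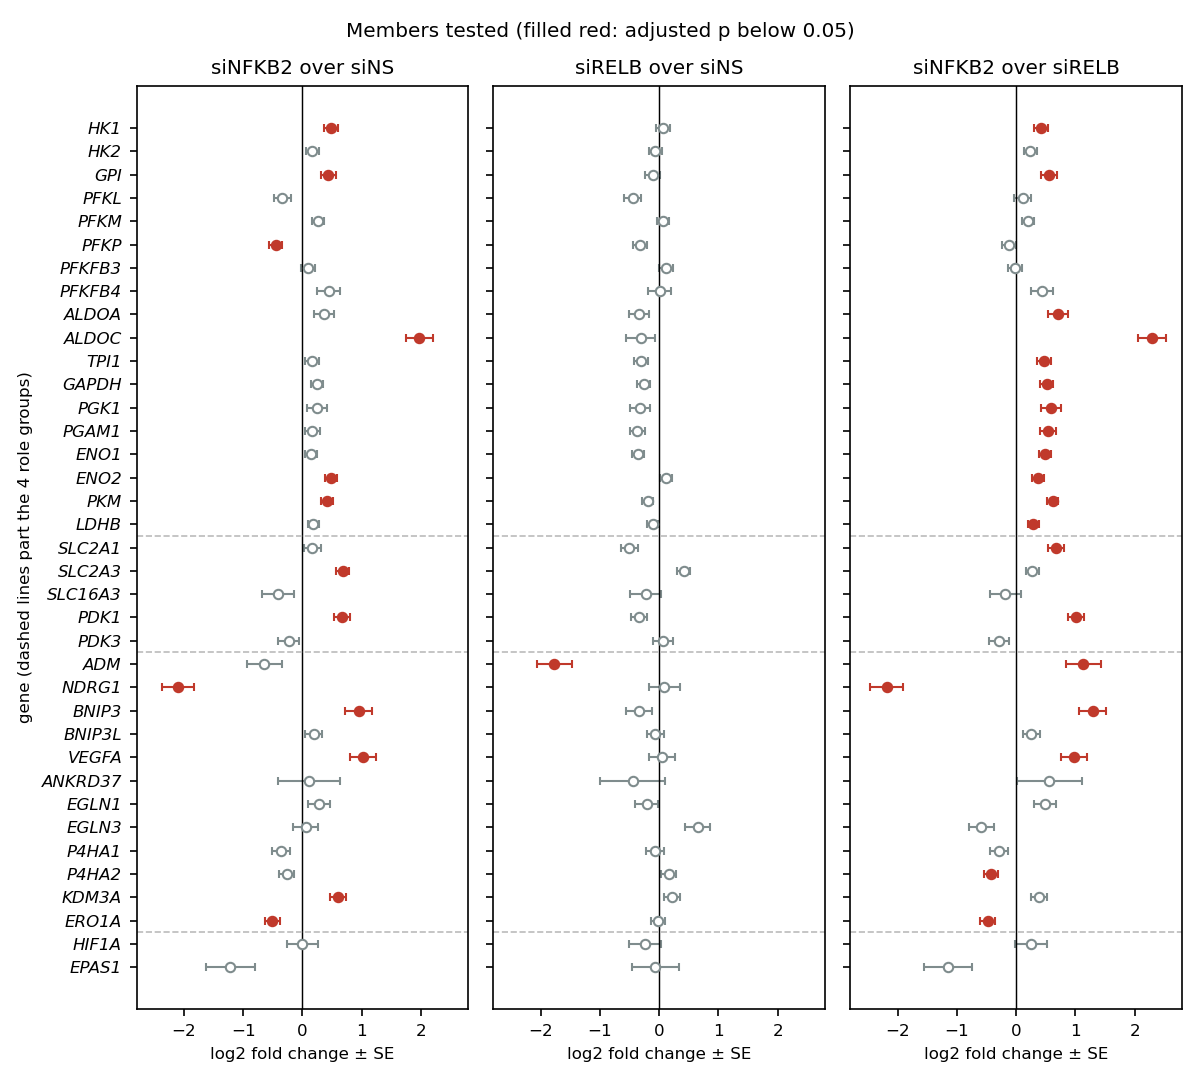
Log2 fold changes ± SE of the 37 tested members (rows, by role) in the 3 comparisons (panels), with filled red points for an adjusted p below 0.05. Most enzymes lie right of 0 for siNFKB2 over siNS, left of 0 for siRELB over siNS, and farthest right for siNFKB2 over siRELB, where 12 of 18 were called. ALDOC at 1.98 and NDRG1 at -2.10 are the outermost points of the left panel.

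Over the 18 enzymes, the median log2 fold change was 0.25 between siNFKB2 and siNS libraries, where the median of all genes was -0.004. There 16 of 18 enzymes and 7363 of all 14815 genes were positive. The enzymes' median was -0.23 between siRELB and siNS, where that of all genes was -0.016, and 13 of 18 enzymes and 7701 of 14815 genes were negative. Between siNFKB2 and siRELB it was 0.45, where the median of all genes was 0.02. For siRELB against siNS edgeR called 0 of the 18 enzymes, and 6 were at an unadjusted p below 0.05, as were 2492 of all 14815 genes tested. DESeq2 called 1 enzyme, ENO1 (log2 -0.35, adjusted p = 0.0348), where it called 830 of 13047 genes. In 8 of the 18 enzymes all siRELB libraries lay below all siNS libraries, which was so for 10.2% of all genes tested. Added up, the 18 enzymes came to 2.24%, 2.59% and 2.21% of the TMM-scaled library size in siNFKB2 replicates 1 to 3, 1.66%, 1.67% and 1.6% in siRELB, and 1.91%, 2.04% and 1.93% in siNS. The groups did not overlap in this sum, which GAPDH, ENO1 and PKM dominate. The 12 HIF targets came to 0.114% ± 0.00756, 0.125% ± 0.000396 and 0.127% ± 0.00913 of the TMM-scaled library size in the same order of groups (SD, n = 3).

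Glucose enters through the carriers GLUT1, encoded by SLC2A1, and GLUT3, encoded by SLC2A3, which has the higher affinity. SLC2A3 was at 77.8, 88.8 and 75.1 CPM in siNFKB2 replicates 1 to 3, 65.9, 71.0 and 63.2 CPM in siRELB and 52.6, 49.0 and 49.0 CPM in siNS. Every siNFKB2 library was above every siRELB library and these above every siNS library. Between siNFKB2 and siRELB it gave log2 0.27 (adjusted p = 0.0963), which passed with replicate number as a block (adjusted p = 0.0442). The rise in siNFKB2 over siNS passed (log2 0.68, SE 0.11, adjusted p = 0.002), and siRELB over siNS gave 0.41 (SE 0.11, adjusted p = 0.0998). SLC2A1 had 236.8, 335.8 and 296.3 CPM in siNFKB2, 167.4, 196.9 and 180.8 CPM in siRELB and 232.4, 280.4 and 259.4 CPM in siNS libraries. Here siRELB was the low group and siNFKB2 and siNS overlapped. It was higher in siNFKB2 than in siRELB (log2 0.67, SE 0.14, adjusted p = 0.00678), with 0.17 for siNFKB2 over siNS (adjusted p = 0.414) and -0.50 for siRELB over siNS (adjusted p = 0.108). Both carriers were called in siRELB against siNS by DESeq2 (adjusted p = 0.0277 for SLC2A1 and 0.0187 for SLC2A3), in opposite directions, and by edgeR without siNS replicate 1 (adjusted p = 0.0335 and 0.0385), with replicate number as a block (0.00661 and 0.0248) and without the libraries numbered 1 (0.00546 and 0.0148). Per kilobase of exon, SLC2A3 made up 17.8% ± 2.08 of both carriers in siNFKB2, 22.0% ± 1.06 in siRELB and 13.1% ± 1.53 in siNS libraries.

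Hexokinases trap glucose in the cell by phosphorylation. HK1 (chr10:69269984-69401884, plus strand, GRCh38, GENCODE 29) was at 634.6, 661.0 and 554.5 CPM in siNFKB2 libraries, 517.5, 426.4 and 439.6 CPM in siRELB and 489.5, 409.5 and 428.7 CPM in siNS. All siNFKB2 libraries were above the other 6. Its level rose in siNFKB2 over siNS (log2 0.48, SE 0.12, adjusted p = 0.0158) and was higher than in siRELB (log2 0.42, adjusted p = 0.0274). HK2, the isozyme that HIF induces in many cell types, was at 98.9 ± 9.81 CPM in siNFKB2, 84.0 ± 2.75 in siRELB and 88.0 ± 6.07 in siNS and was called in no comparison (adjusted p = 0.147 to 0.809), though over siRELB without the libraries numbered 1 (log2 0.31, adjusted p = 0.0328). GPI, which turns glucose phosphate to fructose phosphate, was at 304.9, 419.8 and 388.5 CPM in siNFKB2, 245.3, 267.4 and 245.8 CPM in siRELB and 254.1, 301.4 and 265.6 CPM in siNS libraries. It rose in siNFKB2 over siNS (log2 0.44, SE 0.13, adjusted p = 0.033) and over siRELB (log2 0.55, adjusted p = 0.0122), with siNFKB2 replicate 1 only just above the highest siNS library.

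Phosphofructokinase commits sugar to glycolysis, and its 3 subunit genes did not move alike. PFKP, the platelet form, was at 79.6, 87.1 and 79.7 CPM in siNFKB2 libraries, 85.8, 94.9 and 88.0 CPM in siRELB and 97.9, 119.4 and 119.6 CPM in siNS. It was the 1 glycolytic enzyme called lower after NFKB2 knockdown (log2 -0.45, SE 0.12, adjusted p = 0.0165), and all siRELB libraries were below all siNS libraries too (log2 -0.33, adjusted p = 0.191, or 0.0319 without siNS replicate 1). PFKL, the liver form, was at 76.5 ± 8.40 CPM in siNFKB2, 70.9 ± 11.8 CPM in siRELB and 96.7 ± 8.04 CPM in siNS, which did not pass (adjusted p = 0.112 and 0.154 against siNS). All siNFKB2 and all siRELB libraries were below all siNS libraries. Without the libraries numbered 1 PFKL was called lower than siNS in siNFKB2 (log2 -0.40, adjusted p = 0.0186) and in siRELB (log2 -0.64, adjusted p = 0.00382). PFKM, the muscle form, was at 162.7 ± 9.16 CPM in siNFKB2, 141.4 ± 1.94 CPM in siRELB and 135.8 ± 9.49 CPM in siNS, with all siNFKB2 libraries highest (log2 0.26 over siNS, adjusted p = 0.0819, or 0.0385 with replicate number as a block). Per kilobase of exon, PFKM made up 46.5% ± 1.86 of the 3 in siNFKB2, 42.2% ± 1.45 in siRELB and 35.4% ± 3.66 in siNS libraries. The bifunctional enzymes PFKFB3 and PFKFB4 set the level of the activator of phosphofructokinase. Neither was called in any comparison: PFKFB3 spanned 62.7 to 80.2 CPM over all 9 libraries, and PFKFB4 was at 18.0, 31.0 and 30.3 CPM in siNFKB2 libraries against 18.7 to 20.5 CPM in siRELB and 18.4 to 20.7 CPM in siNS. PFKFB4 was thus level in replicate 1 and high in siNFKB2 replicates 2 and 3, and without the libraries numbered 1 it was called over siNS (log2 0.71, adjusted p = 0.000508), as it was without siNFKB2 replicate 1 alone (log2 0.66, adjusted p = 0.00458). Over siRELB it was called in the same settings (adjusted p = 0.00102 and 0.0047).

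The largest change of any enzyme was in aldolase, which splits fructose bisphosphate. ALDOC (chr17:28573115-28577264, minus strand), the aldolase best known from brain, was at 14.8, 23.8 and 16.3 CPM in siNFKB2 libraries, 4.76, 3.42 and 3.01 CPM in siRELB and 4.89, 4.88 and 4.17 CPM in siNS. The lowest siNFKB2 library stood clear of the highest of the other 6. The log2 fold change was 1.98 over siNS (SE 0.23, adjusted p = 0.000429) and 2.29 over siRELB (SE 0.24, adjusted p = 0.000277). ALDOA, the main aldolase of most tissues, was at 134.4, 134.6 and 98.3 CPM in siNFKB2, 88.6, 75.7 and 61.3 CPM in siRELB and 96.1, 84.6 and 104.4 CPM in siNS libraries. It was higher in siNFKB2 than in siRELB (log2 0.70, SE 0.17, adjusted p = 0.0131), whereas siNFKB2 and siNS overlapped (log2 0.37, adjusted p = 0.14). Per kilobase of exon, ALDOC made up 16.7% ± 3.39 of both aldolases in siNFKB2, 6.19% ± 0.511 in siRELB and 6.20% ± 1.05 in siNS. In GENCODE 29, other gene models cover 53.5% of the exonic length of ALDOA, 42.3% on its own strand, and 10.1% of that of ALDOC on the opposite strand. A readthrough entry over ALDOA, LOC112694756, held 6.85% to 11% of the counts of both, so the level of ALDOA and its share are uncertain.

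**Figure D2:**
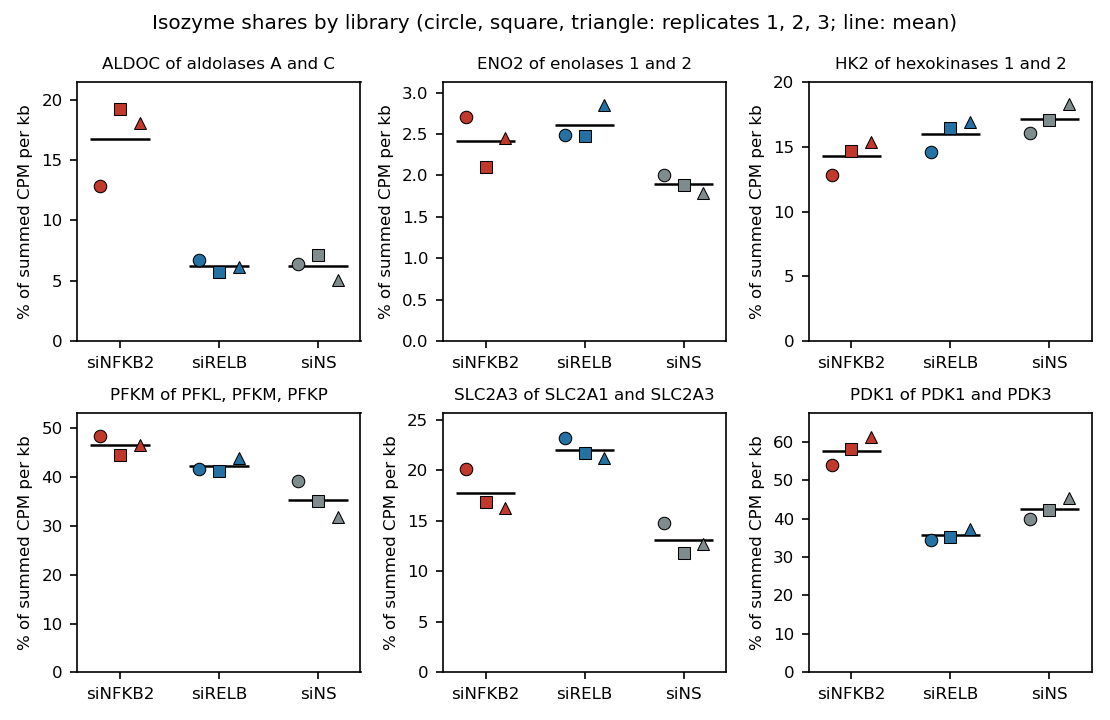
Share of 1 isozyme in the summed CPM per kilobase of its family (vertical axis, percent) in each library, grouped as siNFKB2, siRELB and siNS, with lines at the means. ALDOC is at 12.8% to 19.2% of the aldolases in siNFKB2 and at 5.07% to 7.16% in the other 6 libraries. The share of PDK1 is at 53.8% to 61.1% in siNFKB2, 34.4% to 37.4% in siRELB and 39.8% to 45.3% in siNS.

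From triose phosphate onward, TPI1, GAPDH, PGK1, PGAM1, ENO1, PKM and LDHB each had its highest mean in siNFKB2 and its lowest in siRELB libraries. ENO2, of the same stretch, had its lowest mean in siNS, at 80.3 CPM against 87.1 CPM in siRELB. The share of all genes with the order of the others was not counted. TPI1, which interconverts the triose phosphates, was at 777.1, 953.4 and 891.9 CPM in siNFKB2, 599.0, 657.8 and 641.4 CPM in siRELB and 702.8, 876.9 and 771.0 CPM in siNS libraries. GAPDH, which oxidizes glyceraldehyde phosphate, was at 6584, 7859 and 7007 CPM in siNFKB2, 4754, 5316 and 4945 CPM in siRELB and 5505, 6637 and 5917 CPM in siNS. For both genes siNFKB2 and siNS overlapped, while siRELB lay below each. Each was higher in siNFKB2 than in siRELB, TPI1 at log2 0.47 (SE 0.12, adjusted p = 0.0155) and GAPDH at 0.51 (SE 0.11, adjusted p = 0.00653). GAPDH was not called over siNS (log2 0.25, adjusted p = 0.116), but was with replicate number as a block (adjusted p = 0.0276). GAPDH is often used as a constant reference in expression assays, and here its siNFKB2 mean of 7150 ± 649 CPM stood against 5005 ± 285 CPM in siRELB.

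PGK1 catalyses the first step that forms ATP, and PGAM1 then moves the remaining phosphate group. PGK1 was at 1136, 1187 and 933.2 CPM in siNFKB2 libraries, 863.4, 665.4 and 648.0 CPM in siRELB and 1091, 743.2 and 898.9 CPM in siNS. PGAM1 was at 62.4, 73.0 and 55.3 CPM in siNFKB2, 45.8, 43.5 and 41.9 CPM in siRELB and 58.7, 51.3 and 59.5 CPM in siNS libraries. Both were higher in siNFKB2 than in siRELB, PGK1 at log2 0.58 (SE 0.17, adjusted p = 0.0275) and PGAM1 at log2 0.54 (SE 0.13, adjusted p = 0.0127). Against siNS neither knockdown passed (adjusted p = 0.19 to 0.369), though PGK1 did in siNFKB2 without the libraries numbered 1 (log2 0.37, adjusted p = 0.0429).

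Enolase makes phosphoenolpyruvate. ENO1, its general form, was at 5340.0, 6374 and 5226 CPM in siNFKB2, 4155, 4034 and 3860.0 CPM in siRELB and 4956, 5360.4 and 5075 CPM in siNS libraries. It was called between the knockdowns (log2 0.49, SE 0.10, adjusted p = 0.00609), and in siRELB against siNS it gave -0.35, called by DESeq2, with replicate number as a block (adjusted p = 0.0292) and without the libraries numbered 1 (0.0383). ENO2, the form of neurons and tumours, was at 120.6, 110.8 and 106.7 CPM in siNFKB2, 86.1, 83.4 and 92.0 CPM in siRELB and 82.1, 83.9 and 75.0 CPM in siNS. Its siNFKB2 libraries were above the other 6, with log2 0.49 over siNS (SE 0.10, adjusted p = 0.00736) and 0.37 over siRELB (adjusted p = 0.0251). Even so ENO2 was a minor part of enolase, at 2.42% ± 0.307 of both forms per kilobase in siNFKB2, 2.61% ± 0.211 in siRELB and 1.89% ± 0.107 in siNS.

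Pyruvate kinase closes the pathway. PKM (chr15:72199029-72231822, minus strand) was at 5496, 6297 and 5191 CPM in siNFKB2 libraries, 3801, 3690 and 3601 CPM in siRELB and 4296, 4262 and 4170 CPM in siNS. The 3 groups were fully apart, siNFKB2 highest and siRELB lowest, and replicates of siRELB and siNS lay close together. It rose in siNFKB2 over siNS (log2 0.42, SE 0.10, adjusted p = 0.01) and over siRELB (log2 0.61, SE 0.10, adjusted p = 0.0015), with -0.20 for siRELB over siNS (adjusted p = 0.327). The count is per gene and does not separate the M1 and M2 splice forms. LDHB, the lactate dehydrogenase subunit that favours pyruvate formation, was at 1236, 1267 and 1095 CPM in siNFKB2, 979.0, 992.0 and 967.8 CPM in siRELB and 1033, 1100.5 and 1036 CPM in siNS libraries. It was called only against siRELB (log2 0.29, SE 0.09, adjusted p = 0.0417), and 33.4% of its exonic length lies under another model on its strand. LDHA, the subunit that favours lactate, is listed with 0, 1 and 1 counts in siNFKB2, 1, 0 and 0 in siRELB and 0 in every siNS library. As GAPDH, ENO1 and PKM are among the most abundant members, nothing about its expression was read from these counts.

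**Figure D3:**
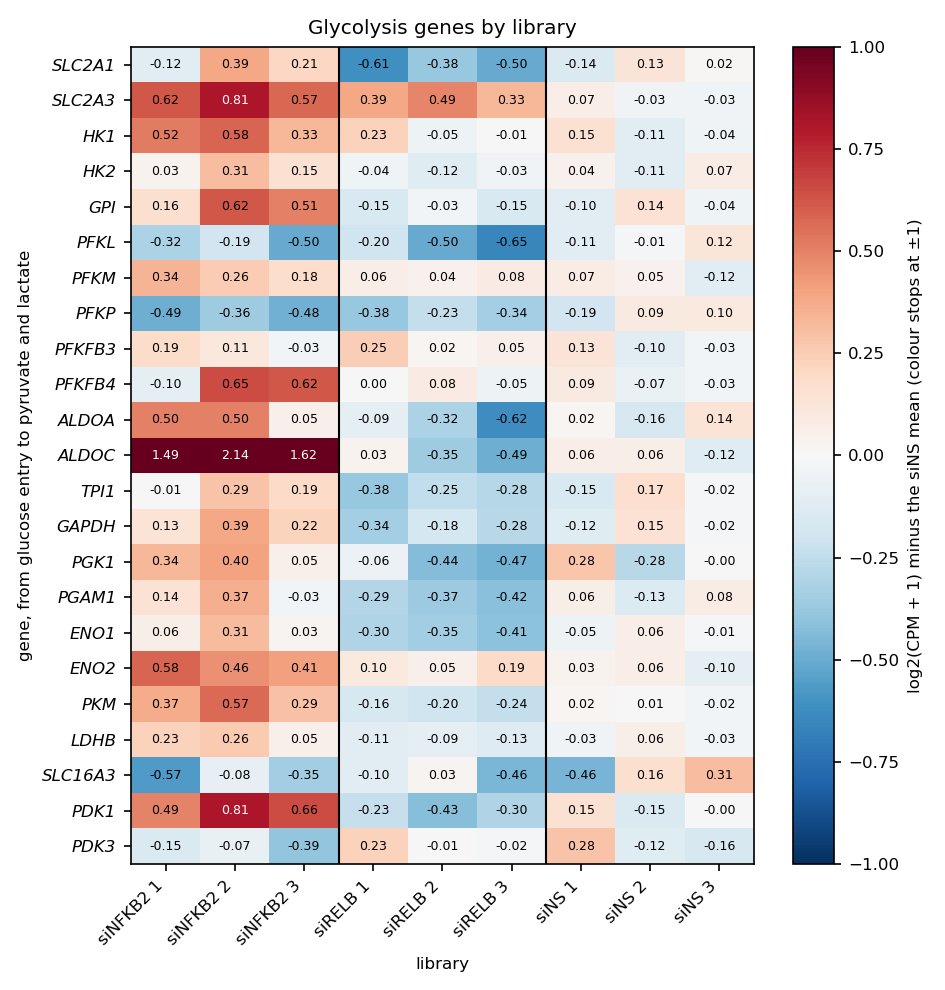
Glycolytic enzymes, carriers and pyruvate dehydrogenase kinases (rows, in pathway order) in each library (columns), as log2(CPM + 1) minus the siNS mean, with colour stopping at 1 either side. ALDOC reaches 1.49, 2.14 and 1.62 in the siNFKB2 libraries, PFKP is blue in all siNFKB2 and siRELB libraries, and the rows from TPI1 to PKM, ENO2 apart, are below 0 in every siRELB library.

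At the end of the pathway, pyruvate dehydrogenase kinases hold pyruvate back from the mitochondria by switching off pyruvate dehydrogenase. PDK1 (chr2:172555373-172608669, plus strand), a well-known HIF target, was at 41.6, 52.0 and 46.7 CPM in siNFKB2 libraries, 24.7, 21.5 and 23.5 CPM in siRELB and 32.5, 26.3 and 29.2 CPM in siNS. The 3 groups did not overlap. PDK1 rose in siNFKB2 over siNS (log2 0.67, SE 0.13, adjusted p = 0.0053) and over siRELB (log2 1.01, SE 0.14, adjusted p = 0.000737). PDK3, a related kinase, was at 11.4 ± 1.39 CPM in siNFKB2, 14.0 ± 1.47 CPM in siRELB and 13.4 ± 2.57 CPM in siNS, with no call. SLC16A3, the lactate exporter MCT4, was low throughout, at 4.19 to 6.27 CPM in siNFKB2, 4.60 to 6.83 CPM in siRELB and 4.57 to 8.51 CPM in siNS libraries, also with no call.

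How far the calls among the enzymes rest on single libraries differed by gene. In siNFKB2 over siNS, ALDOC, ENO2 and PKM, with SLC2A3 and PDK1, were called under all 17 alternatives. The enzyme count of 6 was 3 without siNS replicate 3, where HK1 (adjusted p = 0.0639), GPI (0.0947) and PFKP (0.0752) dropped out. Over all genes tested, 2352 of 15161 were called in that setting, against 3869 of 14815 in the main fit. Without siNFKB2 replicate 2, HK1 (0.0642) and GPI (0.111) dropped out, without siNFKB2 replicate 3 GPI (0.0852) and PFKP (0.0578), and GPI also without siNS replicate 1 (0.0601), siRELB replicate 2 (0.054) or siRELB replicate 3 (0.0569). Between siNFKB2 and siRELB, ALDOC, GAPDH, ENO1 and PKM, with SLC2A1 and PDK1, were called under all 17. The count of 12 enzymes was 4 without siRELB replicate 3, where the other 8 were at adjusted p = 0.0542 to 0.138, and 5 without siNFKB2 replicate 2, where 7 were at 0.051 to 0.103. It was 7 without siRELB replicate 2, where HK1, PGK1, PGAM1, ENO2 and LDHB were at 0.0545 to 0.119. Calls over all genes fell too, from 3934 of 14815 in the main fit. They were 2340 of 15197 without siRELB replicate 3, 2188 of 15214 without siNFKB2 replicate 2 and 2312 of 15213 without siRELB replicate 2. Without siNFKB2 replicate 1, HK1, PGK1, ENO2 and LDHB dropped out (0.0526 to 0.074), and without siRELB replicate 1, TPI1, ENO2 and LDHB (0.0569 to 0.106). Every called enzyme kept its sign. Without the 3 libraries numbered 1, siNFKB2 over siNS called 9 enzymes, 7 higher, siNFKB2 over siRELB 13, all higher, and siRELB over siNS 4, all lower: PFKL (log2 -0.64), PFKP (-0.39), TPI1 (-0.34) and ENO1 (-0.40). In that setting 44.9%, 44.1% and 22.7% of all genes were called in the same order of comparisons. With both directions together, the counts of 9 in siNFKB2 over siNS and 4 in siRELB over siNS, of 18 enzymes tested, are thus near their backgrounds.

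The HIF targets did not change in a single direction. BNIP3 (chr10:131966455-131982013, minus strand), which sends mitochondria to autophagy, was at 50.6, 99.3 and 80.0 CPM in siNFKB2 libraries, 33.2, 31.3 and 29.1 CPM in siRELB and 44.4, 31.8 and 42.6 CPM in siNS. Replicate 1 was the lowest siNFKB2 library, not far above the highest siNS library. It rose in siNFKB2 over siNS (log2 0.95, SE 0.22, adjusted p = 0.0115) and over siRELB (log2 1.29, SE 0.23, adjusted p = 0.00277). Its promoter holds 5 cores, the most of the 5 shown. BNIP3L, its relative with the same role, was at 224.2 ± 19.4 CPM in siNFKB2, 187.7 ± 11.2 in siRELB and 196.5 ± 34.6 CPM in siNS, with no call. Without the libraries numbered 1 it was called in siNFKB2 over siNS (log2 0.36, adjusted p = 0.03, against log2 0.19 with all libraries) and over siRELB (log2 0.34, adjusted p = 0.035). BNIP3 made up 21.3% ± 4.47 of the pair per kilobase in siNFKB2, 11.9% ± 0.293 in siRELB and 14.0% ± 0.633 in siNS.

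VEGFA (chr6:43770184-43786487, plus strand), the growth factor of blood vessels, was at 52.6, 92.3 and 90.0 CPM in siNFKB2 libraries, 33.0, 43.7 and 42.8 CPM in siRELB and 32.2, 43.1 and 40.4 CPM in siNS. All siNFKB2 libraries were above the other 6, and siRELB and siNS overlapped. The log2 fold change was 1.02 over siNS (SE 0.22, adjusted p = 0.00745) and 0.97 over siRELB (SE 0.22, adjusted p = 0.00938). KDM3A, a histone demethylase that HIF induces, was at 64.8, 82.6 and 84.6 CPM in siNFKB2, 50.8, 62.7 and 63.8 CPM in siRELB and 51.4, 51.5 and 50.1 CPM in siNS libraries. It rose in siNFKB2 over siNS (log2 0.60, SE 0.14, adjusted p = 0.0101), and over siRELB it gave 0.39 (adjusted p = 0.061). That passed by DESeq2 (0.0467), with replicate number as a block (0.0138), without siNFKB2 replicate 1 (0.0172), without siNS replicate 1 (0.0497) and without the libraries numbered 1 (0.00449). In that last setting KDM3A was also higher in siRELB than in siNS (log2 0.32, adjusted p = 0.0319).

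NDRG1, a stress-induced protein often used as a hypoxia marker, went the other way and had the largest fall of any member. It was at 43.7, 20.2 and 21.2 CPM in siNFKB2 libraries, 149.6, 118.2 and 120.6 CPM in siRELB and 138.5, 112.2 and 114.9 CPM in siNS. No siNFKB2 library came near the others, and siRELB and siNS overlapped. Its log2 fold change was -2.10 against siNS (SE 0.27, adjusted p = 0.000633) and -2.19 against siRELB (SE 0.27, adjusted p = 0.000556). ERO1A (chr14:52639916-52695900, minus strand), which oxidizes the enzyme that forms disulphide bonds in the endoplasmic reticulum, was at 266.1, 218.4 and 193.2 CPM in siNFKB2, 309.2, 322.8 and 315.5 CPM in siRELB and 330.3, 308.7 and 322.4 CPM in siNS libraries. It also fell in siNFKB2, at log2 -0.50 against siNS (SE 0.12, adjusted p = 0.0129) and -0.48 against siRELB (adjusted p = 0.0157). Its promoter holds 3 cores, while the promoters shown for genes that rose hold 4 (ALDOC), 5 (BNIP3) and 2 (PDK1).

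ADM was the 1 member called after RELB knockdown. It encodes adrenomedullin, a peptide that widens vessels (chr11:10304680-10307397, plus strand), and was at 12.5, 19.8 and 20.8 CPM in siNFKB2 libraries, 7.48, 8.19 and 8.48 CPM in siRELB and 15.6, 36.8 and 30.1 CPM in siNS. The siRELB libraries were close to each other and below all others, while siNS spread widely. It fell in siRELB against siNS (log2 -1.77, SE 0.30, adjusted p = 0.0188), and siNFKB2 was higher than siRELB (log2 1.13, SE 0.30, adjusted p = 0.0192). Between siNFKB2 and siNS it gave -0.64 (SE 0.29, adjusted p = 0.131), which passed with replicate number as a block (adjusted p = 0.0155), without siNS replicate 1 (0.00699) and without the libraries numbered 1 (0.000963). The call in siRELB was lost without siNS replicate 2 (adjusted p = 0.0596), siNS replicate 3 (0.114), siRELB replicate 1 (0.0594), siRELB replicate 2 (0.11) or siRELB replicate 3 (0.104), with log2 between -1.52 and -1.81. Between the knockdowns it was lost without siNFKB2 replicate 2 (0.0669) or 3 (0.063), or siRELB replicate 1 (0.0608), 2 (0.0607) or 3 (0.0557).

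Among the remaining targets, the collagen prolyl hydroxylases P4HA1 and P4HA2 had their lowest means in siNFKB2. P4HA2 was at 145.3, 177.6 and 149.8 CPM in siNFKB2 libraries, 183.9, 222.9 and 228.9 CPM in siRELB and 178.2, 200.3 and 189.8 CPM in siNS. All siNFKB2 libraries were below the other 6, and it was called against siRELB (log2 -0.43, SE 0.12, adjusted p = 0.0288) but not against siNS (log2 -0.27, adjusted p = 0.143, or 0.0401 with replicate number as a block). P4HA1 was at 158.9 ± 26.1 CPM in siNFKB2, 193.7 ± 5.40 CPM in siRELB and 203.8 ± 32.9 CPM in siNS (log2 -0.36 against siNS, adjusted p = 0.105, or 0.0293 with the block, 0.0499 without siNS replicate 2 and 0.0483 without the libraries numbered 1, where it also passed against siRELB at 0.0333). The oxygen sensors EGLN1 and EGLN3, which hydroxylate HIF alpha and are themselves HIF targets, were not called. EGLN1 was at 94.9 ± 5.54 CPM in siNFKB2, 67.6 ± 10.2 CPM in siRELB and 78.2 ± 21.0 CPM in siNS, and EGLN3 at 4.27 ± 0.557, 6.42 ± 1.24 and 4.09 ± 0.619 CPM. Between siNFKB2 and siRELB both passed with the block, EGLN1 higher (log2 0.50, adjusted p = 0.0161) and EGLN3 lower (log2 -0.59, adjusted p = 0.0413). EGLN1 also passed there without siNS replicate 1 (adjusted p = 0.0401), without siNS replicate 2 (0.0209), with only the 6 libraries compared (0.0178) and without the libraries numbered 1 (0.0103), where it passed over siNS too (0.0431). ANKRD37 was at most 1.21 CPM, and 35.2% of its exonic length lies under UFSP2 on the opposite strand. CA9, a membrane carbonic anhydrase that marks strong hypoxia, had 0 to 2 counts in every library, a level within the 3 counts that a count of 0 allows. ANGPTL4, a secreted regulator of lipid uptake, had 4, 4 and 7 counts in siNFKB2, 5, 2 and 4 in siRELB and 2, 3 and 1 in siNS, too few to compare.

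**Figure D4:**
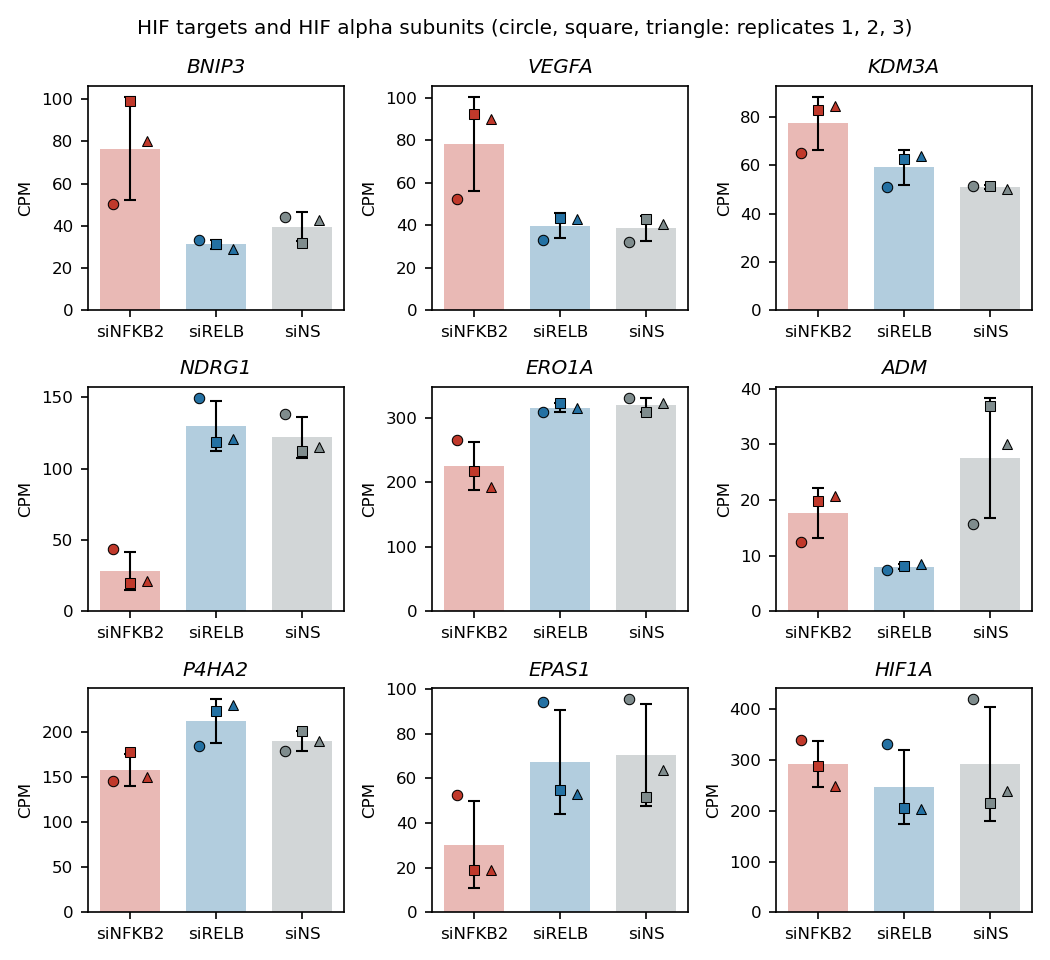
CPM of 7 HIF targets and both HIF alpha subunits in siNFKB2, siRELB and siNS libraries (bars for means, error bars for SD, n = 3, circles, squares and triangles for replicates 1, 2 and 3). BNIP3, VEGFA and KDM3A are highest in siNFKB2, NDRG1 and ERO1A lowest in siNFKB2, ADM lowest in siRELB, and for EPAS1 and HIF1A the circles lie above the other symbols in each group.

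The alpha subunits themselves split. HIF1A, which acts on glycolytic genes in most cells, was at 338.2, 288.1 and 248.5 CPM in siNFKB2 libraries, 330.1, 204.9 and 202.5 CPM in siRELB and 419.9, 214.7 and 239.2 CPM in siNS. In each group replicate 1 was highest, and the groups overlapped (log2 0.00 for siNFKB2 over siNS, SE 0.27, adjusted p = 0.998). Within each replicate number the siNFKB2 library was above the siRELB library (log2 0.25, adjusted p = 0.536, or 0.0845 with replicate number as a block), and without the libraries numbered 1 this was called (log2 0.39, adjusted p = 0.0104). EPAS1, the gene of HIF-2 alpha, was at 52.8, 19.0 and 18.9 CPM in siNFKB2, 94.3, 54.8 and 53.0 CPM in siRELB and 95.8, 51.7 and 63.8 CPM in siNS libraries. Within each replicate number the siNFKB2 library was the lowest, although siNFKB2 replicate 1 overlapped siNS. The log2 fold change against siNS was -1.22 (SE 0.41, adjusted p = 0.0524), and with replicate number as a block it was called (log2 -1.33, adjusted p = 7.07e-05). It also passed by DESeq2 (log2 -1.22, adjusted p = 0.0124), with no filter on low counts (0.00315), without the libraries numbered 1 (2.79e-06) and without siNFKB2 replicate 1 (log2 -1.89, adjusted p = 0.00264), siNS replicate 2 (0.0493) or siRELB replicate 1 (0.0495). The same held against siRELB, at log2 -1.15 (adjusted p = 0.0623), which passed with the block (log2 -1.25, adjusted p = 9.29e-05), by DESeq2 (0.0197), with no filter (0.00533), without the libraries numbered 1 (4.18e-06) and without siNFKB2 replicate 1 (log2 -1.83, 0.00298) or siNS replicate 1 (0.0402). EPAS1 made up 6.49% ± 2.99 of both alpha genes per kilobase in siNFKB2, 16.1% ± 0.623 in siRELB and 14.7% ± 1.01 in siNS. HIF activity is set mainly by the stability of the alpha protein, which RNA does not measure.

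The calls of HIF targets also leaned on single libraries. In siNFKB2 against siNS, NDRG1, VEGFA and KDM3A were called under all 17 alternatives. The count of 5 was 3 without siNFKB2 replicate 2, where BNIP3 (adjusted p = 0.0597) and ERO1A (0.058) dropped out, and ERO1A did so without siNFKB2 replicate 3 (0.0523). Over all genes tested, 2220 of 15214 and 2647 of 15147 were called in these settings in that order, against 3869 of 14815 in the main fit. Between the knockdowns, NDRG1, BNIP3 and VEGFA were called under all 17. There the count of 6 was 3 without siNFKB2 replicate 3, siRELB replicate 2 or siRELB replicate 3, where ADM, P4HA2 and ERO1A dropped out at adjusted p = 0.0556 to 0.117. Calls over all genes were 2593 of 15147, 2312 of 15213 and 2340 of 15197 in the same order, against 3934 of 14815 in the main fit. ERO1A was also lost without siNFKB2 replicate 2 (0.0664), and P4HA2 without siNFKB2 replicate 1 (0.0651) or siNS replicate 3 (0.0523). With replicate number as a block the count was 8 against siNS, 3 higher and 5 lower, and without the 3 libraries numbered 1 it was 9, 5 higher and 4 lower. Between the knockdowns it was 9 with the block and 10 without the libraries numbered 1. The share of all genes called was larger in these settings too, at 40.1% with the block and 44.9% without the libraries numbered 1 against siNS, and at 40.9% and 44.1% between the knockdowns.

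Ordered by level per kilobase of exon in siNS, the list ran from GAPDH at 2019 ± 192 CPM per kb, ENO1 at 972.4 ± 39.4 and PKM at 495.0 ± 7.62 down through LDHB, TPI1 and PGK1 to HK1 at 70.3 ± 6.63. Over the siNS libraries no 2 neighbours among these 7 overlapped. The highest HIF target was P4HA1 at 65.9 ± 10.6 CPM per kb, next to HIF1A at 56.5 ± 21.8, and these overlapped with each other and with HK1. SLC16A3, EGLN3 and ANKRD37 were lowest, each below 1 CPM per kb. The first 7 members had the same order by mean in siNFKB2 and in siRELB libraries.

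Other genes of the pathway were counted from lists that do not hold the members, against the 26.1%, 2.02% and 26.6% of all genes called in siNFKB2 over siNS, siRELB over siNS and siNFKB2 over siRELB. Of 28 tested genes for other isoforms and side branches of glycolysis, 1 rose and 5 fell in siNFKB2 over siNS, a share of 21.4%, with a median log2 fold change of -0.16, on the other side of 0 from the enzymes' 0.25. ADPGK, a glucokinase that uses ADP, was at 26.7, 18.1 and 26.1 CPM in siNFKB2 against 54.3, 72.2 and 59.9 CPM in siNS (log2 -1.39, adjusted p = 0.000595). GPD1L, related to the glycerol phosphate dehydrogenase, fell too (log2 -1.35, adjusted p = 0.00635), as did PGD of the pentose phosphate pathway (log2 -0.43, adjusted p = 0.0157). ENO3, the muscle enolase, was the 1 that rose (log2 0.69, adjusted p = 0.034). Against siRELB, 0 of these 28 were higher and 7 lower, led by ADPGK (log2 -1.25, adjusted p = 0.000933) and the carrier gene SLC2A10 (log2 -1.19, adjusted p = 0.00133). In siRELB over siNS edgeR called 0, and 3 were at an unadjusted p below 0.05, where 2492 of all 14815 genes tested were.

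Genes that decide the fate of pyruvate gave 2 rises and 3 falls of 17 in siNFKB2 over siNS, a share of 29.4%, near that of all genes. PDP2, a phosphatase that turns pyruvate dehydrogenase back on, was at 55.2, 57.7 and 49.1 CPM in siNFKB2 against 34.8, 24.0 and 28.8 CPM in siNS (log2 0.89, adjusted p = 0.00214), so it rose alongside the opposing kinase gene PDK1. ME1, malic enzyme of the cytosol, rose (log2 0.84, adjusted p = 0.00723). PC, which makes oxaloacetate from pyruvate, fell (log2 -0.88, adjusted p = 0.00325), as did PDHA1, a subunit of pyruvate dehydrogenase (log2 -0.53, adjusted p = 0.0249), and MPC1, of the mitochondrial pyruvate carrier (log2 -0.37, adjusted p = 0.047). Between the knockdowns 1 was higher, ME1 (log2 0.78, adjusted p = 0.0105), and 3 lower, among them PC (-0.55, 0.0288) and MPC1 (-0.40, 0.0342). In siRELB over siNS edgeR called 0 of 17, with 2 at an unadjusted p below 0.05, where 2492 of all 14815 genes tested were.

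Of 19 genes for oxygen sensing and HIF partners, 1 rose in siNFKB2 over siNS and 0 fell, a share of 5.26%, and the median was -0.01. It was VHL, which marks HIF alpha for destruction, at 39.6, 63.2 and 68.3 CPM in siNFKB2 against 29.4, 37.1 and 40.5 CPM in siNS (log2 0.68, adjusted p = 0.0464). Its siNFKB2 and siNS libraries overlapped through replicate 1. Against siRELB 3 were higher, among them VHL (log2 0.74, adjusted p = 0.033) and RACK1, which binds HIF-1 alpha (log2 0.42, adjusted p = 0.0265). In siRELB over siNS edgeR called 0 of 19, with 2 at an unadjusted p below 0.05, where 2492 of all 14815 genes tested were. A further 39 HIF targets outside the member list gave 12 rises and 3 falls in siNFKB2 over siNS, a share of 38.5% where 26.1% of all genes were called, with a median of 0.27. Heme oxygenase HMOX1 was at 136.9, 123.4 and 115.6 CPM in siNFKB2 against 39.2, 39.5 and 39.7 CPM in siNS (log2 1.67, adjusted p = 0.000248), ERRFI1, which restrains EGF receptor signalling, rose (log2 1.30, adjusted p = 0.000506), and so did the collagen lysyl hydroxylase PLOD2 (log2 1.33, adjusted p = 0.00149). HMOX1 and ERRFI1 also respond to other stresses. ZNF395 fell (log2 -1.82, adjusted p = 0.000953), with TFRC, the transferrin receptor (log2 -1.21, adjusted p = 0.0143), and TMEM45A (log2 -0.69, adjusted p = 0.00432), so this list also holds both directions. In siRELB over siNS 1 of the 39 fell, AK4, an adenylate kinase of mitochondria, at 34.3, 27.5 and 28.6 CPM in siRELB against 73.9, 49.0 and 58.5 CPM in siNS (log2 -1.0, adjusted p = 0.018). Between siNFKB2 and siRELB 10 of the 39 were higher and 4 lower, with HMOX1 (log2 1.64) and AK4 (1.33) among the higher and ZNF395 (-1.91) and TFRC (-1.30) among the lower.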

How the data were processed

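Oligo-dT selected RNA was measured in 3 siNFKB2, 3 siRELB and 3 siNS libraries, grouped and numbered by the labels. The authors deposited raw counts per gene and library as whole numbers. The submitters' processing notes name Trimmomatic 0.38, STAR 2.7.1a, Subread 1.6.4 and GRCh38.p13. Annotation and strand use in the counting were not given in the sources used here, so overlapping and antisense models cannot be separated. Suffixed entries (5005, of 2652 genes, GPI and LDHA among the members) held at most 0.0369% of the counts in a library and were kept apart. No library was a copy of another: chi-square per degree of freedom between libraries of a group was 3.13 to 75.8 over genes with at least 10 counts.

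On these counts, filterByExpr (edgeR 4.0.16, R 4.3.3, limma 3.58.1) left 14815 genes, which were scaled by TMM. A single model of 3 group means over all 9 libraries (residual df 6, common biological coefficient of variation 0.184) was fitted, with the quasi-likelihood F test of edgeR. P-values were adjusted by Benjamini-Hochberg over every gene tested, and a gene was called at 0.05 with no minimum fold. SE is the absolute log2 fold change over the square root of F. Levels per kilobase and overlaps use exons of GENCODE 29, which may not be the annotation counted. Promoters are from RefSeq. The procedure was tested on simulated data. Limits from counts cover counting error only.

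Alternatives were DESeq2 1.42.0, its size factors in edgeR, no filter, a mean of at least 5 CPM, only the 6 libraries compared, suffixed entries summed, replicate number as a block, each library left out and, added later, no libraries numbered 1. Deviations of same-numbered libraries from their group means correlated at 0.632, 0.128 and 0.134 between siNFKB2 and siNS and at 0.59, 0.262 and 0.513 between siNFKB2 and siRELB. As each was over 0.1, the fit with replicate number as a block is given beside the results it changes in these 2 comparisons. The main calls come from the model without it. Block values are also printed for some genes in siRELB against siNS. That comparison does not meet the rule, as replicates numbered 3 correlated at 0.083. The labels name no shared batch, and some libraries of different number correlated more, up to 0.625 for siNFKB2 replicate 3 with siNS replicate 2.

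The members and lists were chosen with earlier results of these data known. All 40 members are named, with values in each library for those called and for the alpha subunits. Of each other list, up to 3 genes each way are named for siNFKB2 against siNS and up to 2 each way in the other comparisons, by smallest adjusted p.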

Additional observations from a re-analysis of the deposited data

How the results depend on the processing

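All 13, 20 and 1 members called in siNFKB2 against siNS, siNFKB2 against siRELB and siRELB against siNS kept their sign under all 17 alternatives, and 8, 9 and 0 of them kept their call in every one. Testing with DESeq2, scaling by its size factors, summing suffixed entries or raising the filter to a mean of at least 5 CPM cost none of these calls. Without a filter GPI was lost against siNS (adjusted p = 0.0508) and HK1 (0.0526), ENO2 (0.107) and LDHB (0.177) against siRELB. With only the 6 libraries compared GPI (0.0843) and PFKP (0.051) were lost against siNS and LDHB (0.0527) against siRELB, and LDHB was also lost without the 3 libraries numbered 1 (0.064). The cause was not tested.

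Counts in siRELB against siNS depended most on the setting. Against 299 genes, DESeq2 called 830, the fit of only 6 libraries 129, the replicate block 1570 and the fit without libraries numbered 1 3390. Enzymes called there were 1 by DESeq2, 3 with the replicate block (PFKL, TPI1 and ENO1) and 4 without libraries numbered 1, and HIF targets 2 in that last setting, against 0 and 1. In this comparison the correlations of same-numbered libraries were 0.676, 0.5 and 0.083, and the block called 10.6% of all genes. For siNFKB2 against siNS the replicate block gave 5944 genes and 8 HIF targets, and leaving out libraries numbered 1 gave 6711 and 9. Between the knockdowns the block gave 6054 genes, and leaving out libraries numbered 1 gave 6600 genes and 10 HIF targets. With replicate number as a block, no member called in the first or last of these comparisons lost its call.

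Leaving out 1 library gave 2220 to 4895 genes, 3 to 7 enzymes and 3 to 6 HIF targets in siNFKB2 against siNS, with the lowest count of genes and of HIF targets without siNFKB2 replicate 2 and of enzymes without siNS replicate 3, which also left 2352 genes. In siRELB against siNS it gave 15 to 1819 genes (lowest without siRELB replicate 2, highest without siNS replicate 1, and moved by over 1.5 times by each library but siNFKB2 replicate 1), 0 to 1 enzymes and 0 to 1 HIF targets. Between the knockdowns it gave 2188 to 4917 genes, 4 to 12 enzymes and 3 to 8 HIF targets, with 2188 without siNFKB2 replicate 2, 2312 and 2340 without siRELB replicates 2 and 3 and 2593 without siNFKB2 replicate 3.

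Of uncalled members, 15 log2 fold changes of 13 members changed sign in some setting, and none was called with the changed sign. In siNFKB2 against siNS, HIF1A was at -0.002 with DESeq2's size factors, -0.003 with DESeq2, -0.028 with no filter, -0.006 at a mean of at least 5 CPM and -0.001 with 6 libraries, and at -0.182 to 0.361 with 1 library left out. Likewise ANKRD37 was at -0.234 to 0.928 (-0.171 without libraries numbered 1) and EGLN3 at -0.028 to 0.198. In siNFKB2 against siRELB, PFKFB3 was at -0.071 to 0.053 (0.004 without libraries numbered 1). In siRELB against siNS the ranges with 1 library left out were -0.032 to 0.139 for HK1, -0.039 to 0.062 for PFKFB4, -0.03 to 0.233 for PDK3, -0.03 to 0.19 for NDRG1 and -0.067 to 0.166 for VEGFA. They were -0.207 to 0.062 for BNIP3L, -0.791 to 0.352 for ANKRD37, -0.194 to 0.055 for P4HA1, -0.061 to 0.003 for ERO1A, -0.516 to 0.117 for HIF1A and -0.387 to 0.223 for EPAS1. Without libraries numbered 1, BNIP3L was at 0.011, P4HA1 at 0.033 and ERO1A at 0.017. Depth limits CA9, ANGPTL4 and ANKRD37, whose counts are too few to show a difference, and nothing is known here of LDHA.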
